A study of Arabidopsis thaliana with 9 samples.

Results

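The ubiquitin ligase genes CMPG1, CMPG2, PUB22, PUB23, PUB24, ATL2, ATL6 and ATL31 were followed in leaf mRNA of Arabidopsis thaliana. They were taken by locus identifier and are 8 of the 33610 genes in the table, and all 8 carry its annotation of a response to chitin. The set was selected on expression differences between the overexpressing line and the other genotypes in these same libraries, so those differences are given as a description and support nothing. The libraries were made from detached rosette leaves of 30-day-old plants, taken without infection, and the labels name no chitin treatment. There were 3 libraries of the wild type Col-0 (WT), 3 of VQ28KO12, which the labels call a VQ28 knockout, and 3 of VQ28OE9, a VQ28 overexpressor, each a single line. The labels give neither the promoter of the overexpression construct nor the way the knockout was made. Whether libraries of 1 genotype stem from different plants is not stated, and p-values therefore cover only the variation among the libraries at hand, possibly technical.

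Ubiquitin ligases choose the proteins to which ubiquitin is attached, and many marked proteins are then degraded by the proteasome. Plant U-box (PUB) proteins, including the CMPG proteins named after conserved cysteine, methionine, proline and glycine residues, bind the ubiquitin-conjugating enzyme through a U-box, and ATL proteins through a RING-H2 finger beside a membrane-spanning segment. Their genes are among the early transcripts that rise when chitin, a fungal cell wall polymer, or other microbial patterns are sensed. PUB22, PUB23 and PUB24 act together to dampen pattern-triggered immunity, and ATL31 and ATL6 act in the response to the carbon to nitrogen balance and in defence.

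The labels were checked first. VQ28 (AT4G20000) stood at 6244, 4665 and 5942 FPKM (fragments scaled by gene length and by sequencing depth) in VQ28OE9 and at 8.70, 0.456 and 6.72 in WT. Under the label VQ28KO12 replicates 1 and 2 had 8.36 and 10.1 FPKM. Replicate 3 had no counts for the gene, and its FPKM was set to 0. A loss of the mRNA is thus not borne out in replicates 1 and 2, and whether the line lacks the protein cannot be read from mRNA. "VQ28KO12" below names the label of the libraries. The library totals were 64552605 to 95223547 count units. The leaf label was met by the mesophyll markers RBCS1A, CAB1, CA1 and RCA, whose summed level was 32104 to 42724 FPKM, while the floral genes AP1, AG and PI summed to at most 0.0866 FPKM and AP1 was at 0 units in all 9 libraries. Along principal component 2 (17.4% of the variance) WT replicate 3 scored -25.8 and VQ28OE9 replicate 3 scored -30.2, whereas the remaining 7 libraries ranged from -3.93 to 17.6.

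The 8 genes lie on chromosomes 1, 2, 3 and 5, and none overlaps another gene of the table. CMPG1 (AT1G66160) lies on chromosome 1 from 24637196 to 24638608 on the plus strand, and CMPG2 (AT5G64660) on chromosome 5 from 25841913 to 25843452 on the minus strand. PUB22 (AT3G52450) lies on chromosome 3 from 19440739 to 19442383, PUB23 (AT2G35930) on chromosome 2 from 15082855 to 15084473 and PUB24 (AT3G11840) on chromosome 3 from 3736400 to 3738257, all on the minus strand. ATL2 (AT3G16720) lies on chromosome 3 from 5692738 to 5694127, ATL6 (AT3G05200) on chromosome 3 from 1476982 to 1478730 and ATL31 (AT5G27420) on chromosome 5 from 9684072 to 9685561, all on the plus strand. These are the coordinates of the deposited table, whose build the labels do not name. In the RefSeq annotation of TAIR10.1, 7 of the coding sequences lie in 1 exon and that of PUB24 in 2. They run from 915 bases in ATL2 to 1371 in PUB24.

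Close copies could have exchanged reads, so the coding sequences of TAIR10.1 were aligned in pairs. PUB22 and PUB23 were identical at 80.8% of 1221 aligned bases, and ATL6 and ATL31 at 77.1% of 1092. The other 26 pairs lay between 57.8% (PUB22 and ATL31) and 65.6% (CMPG2 and ATL2), each a pair of a U-box and an ATL gene. Only aligned bases were counted, so values in this range are not read as relatedness. The longest run of identical bases shared by any pair was 26, in PUB22 and PUB23, and the sequenced reads had 150 bases. Only coding sequences of the ligase genes were compared, and the labels name no aligner or counting tool. Whether reads were exchanged between copies was therefore not tested.

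The 250 bases before each annotated gene start were read from TAIR10.1, because several of the genes move together between libraries. WRKY transcription factors, the partners of VQ proteins, bind the W-box, whose core is TTGAC. The windows of the CMPG and PUB genes are given 5′ to 3′ on the gene strand, since these genes spanned the largest and the smallest differences between VQ28OE9 and WT, apart from ATL31. Capitals mark the W-box core, written as GTCAA where it lies on the opposite strand. They were taken at chr1:24636946-24637195 (plus strand) for CMPG1, chr5:25843556-25843805 (minus) for CMPG2, chr3:3738209-3738458 (minus) for PUB24, chr3:19442428-19442677 (minus) for PUB22 and chr2:15084560-15084809 (minus) for PUB23.
CMPG1: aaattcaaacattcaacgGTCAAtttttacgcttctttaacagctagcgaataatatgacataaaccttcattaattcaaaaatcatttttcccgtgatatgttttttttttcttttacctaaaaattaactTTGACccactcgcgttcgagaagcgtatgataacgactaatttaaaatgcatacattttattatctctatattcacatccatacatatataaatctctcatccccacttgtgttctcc
CMPG2: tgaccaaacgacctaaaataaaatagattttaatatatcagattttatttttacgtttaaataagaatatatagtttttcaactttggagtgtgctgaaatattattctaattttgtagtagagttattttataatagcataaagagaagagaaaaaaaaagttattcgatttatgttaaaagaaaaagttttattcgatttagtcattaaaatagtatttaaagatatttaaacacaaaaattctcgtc
PUB24: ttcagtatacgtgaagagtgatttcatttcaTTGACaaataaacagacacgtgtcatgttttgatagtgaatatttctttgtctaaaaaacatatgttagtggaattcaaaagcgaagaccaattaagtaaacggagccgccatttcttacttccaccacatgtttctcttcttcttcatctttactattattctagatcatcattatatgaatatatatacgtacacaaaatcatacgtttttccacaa
PUB22: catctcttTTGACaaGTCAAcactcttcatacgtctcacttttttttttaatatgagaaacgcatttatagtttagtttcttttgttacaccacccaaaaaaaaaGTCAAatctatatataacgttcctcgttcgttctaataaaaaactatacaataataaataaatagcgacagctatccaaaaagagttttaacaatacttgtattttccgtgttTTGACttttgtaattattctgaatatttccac
PUB23: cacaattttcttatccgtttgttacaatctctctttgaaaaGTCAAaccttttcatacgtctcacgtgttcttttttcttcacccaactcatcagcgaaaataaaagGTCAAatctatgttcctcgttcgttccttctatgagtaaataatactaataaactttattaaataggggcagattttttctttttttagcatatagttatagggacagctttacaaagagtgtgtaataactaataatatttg

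The core was present in 6 of the 8 windows, against 44.9% of the 27443 windows of protein-coding genes on the nuclear chromosomes. PUB22 had 4 matches, CMPG1 and PUB23 had 2 each, PUB24, ATL2 and ATL6 had 1 each, and CMPG2 and ATL31 had 0. At least 2 matches were present in 3 of the 8 windows and in 14.1% of all windows. Both strands were also searched for the G-box CACGTG, the CGCG element CGCGTT and the GCC-box GCCGCC, which are known binding sites of bZIP and bHLH, CAMTA and ERF factors. The G-box was present in PUB23, PUB24 and ATL31 (6.49% of all windows), the CGCG element in CMPG1 (2.59%) and the GCC-box in PUB24 (1.87%). No match overlapped another. Only the core of the W-box was searched for, so a match to it need not be a whole W-box. A match is a sequence in the window and not a bound site.

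**Figure D1:**
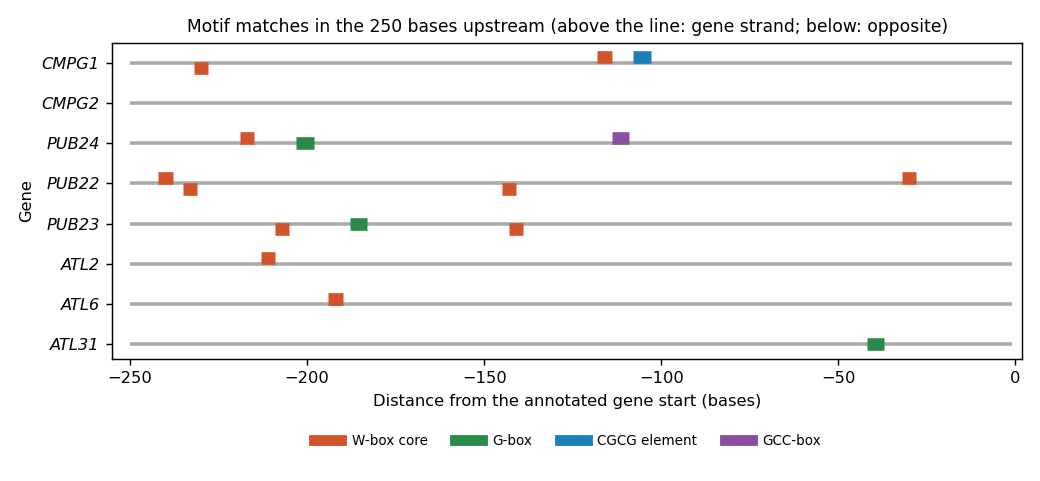
Positions of the 4 motifs in the 250 bases before the annotated start of each gene, in bases from that start. Coloured blocks are matches, above the line on the gene strand and below it on the opposite strand, and the G-box, which reads the same on both, lies on the line. CMPG2 has no match and PUB22 has 4 W-box cores.

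CMPG1 and CMPG2 are paired first. CMPG1 stood at 9.61, 11.6 and 10.8 FPKM in the WT libraries 1 to 3, at 7.78, 11.8 and 6.05 in those labelled VQ28KO12 and at 24.8, 19.3 and 23.3 in those of VQ28OE9. Every VQ28OE9 library lay above all 6 others, and the means were 10.7 ± 0.992 (SD, n = 3), 8.54 ± 2.95 and 22.4 ± 2.83. The log2 fold change was 1.06 ± 0.22 (SE) against WT and 1.43 ± 0.23 against VQ28KO12. CMPG2 stood at 3.11, 3.38 and 4.20 FPKM in WT, at 3.42, 5.63 and 3.7 in VQ28KO12 and at 9.90, 6.95 and 8.53 in VQ28OE9. It showed the same separation at a lower level, with log2 fold changes of 1.23 ± 0.24 and 1.03 ± 0.24. Within each library CMPG1 had 1.64 to 3.43 times the FPKM of CMPG2.

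The PUB genes did not move alike. PUB24 stood at 26.3, 27.5 and 11.8 FPKM in WT, at 15.6, 21.5 and 18.8 in VQ28KO12 and at 60.2, 42.9 and 43.6 in VQ28OE9. All 3 VQ28OE9 libraries lay above the others, and WT replicate 3 was the lowest of all 9. The log2 fold change was 1.15 ± 0.29 against WT and 1.42 ± 0.29 against VQ28KO12. PUB22, whose protein targets the exocyst subunit EXO70B2, stood at 6.52, 12.7 and 9.97 FPKM in WT, at 13.3, 20.2 and 11.4 in VQ28KO12 and at 21.2, 12 and 11.9 in VQ28OE9. The genotypes overlapped, and the log2 fold change was 0.61 ± 0.32 against WT and 0.04 ± 0.32 against VQ28KO12. PUB23, the close copy of PUB22, stood at 15.4, 23.0 and 14.2 FPKM in WT, at 14.0, 20.0 and 10.3 in VQ28KO12 and at 26.9, 17.8 and 11.9 in VQ28OE9. It overlapped in all 3 genotypes, with log2 fold changes of 0.08 ± 0.32 and 0.39 ± 0.32.

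The ratio of PUB24 to PUB23 within a library removes what scales both genes alike. It was 1.71, 1.2 and 0.831 in WT, 1.12, 1.07 and 1.83 in VQ28KO12 and 2.24, 2.41 and 3.67 in VQ28OE9. The VQ28OE9 ratios all lay above the others. The ratio of PUB22 to PUB23 was 0.424, 0.552 and 0.702 in WT, 0.954, 1.01 and 1.10 in VQ28KO12 and 0.789, 0.671 and 1.00 in VQ28OE9. It was lower in every WT library than in any library labelled VQ28KO12. These ratios were chosen after the values were seen and were not tested.

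**Figure D2:**
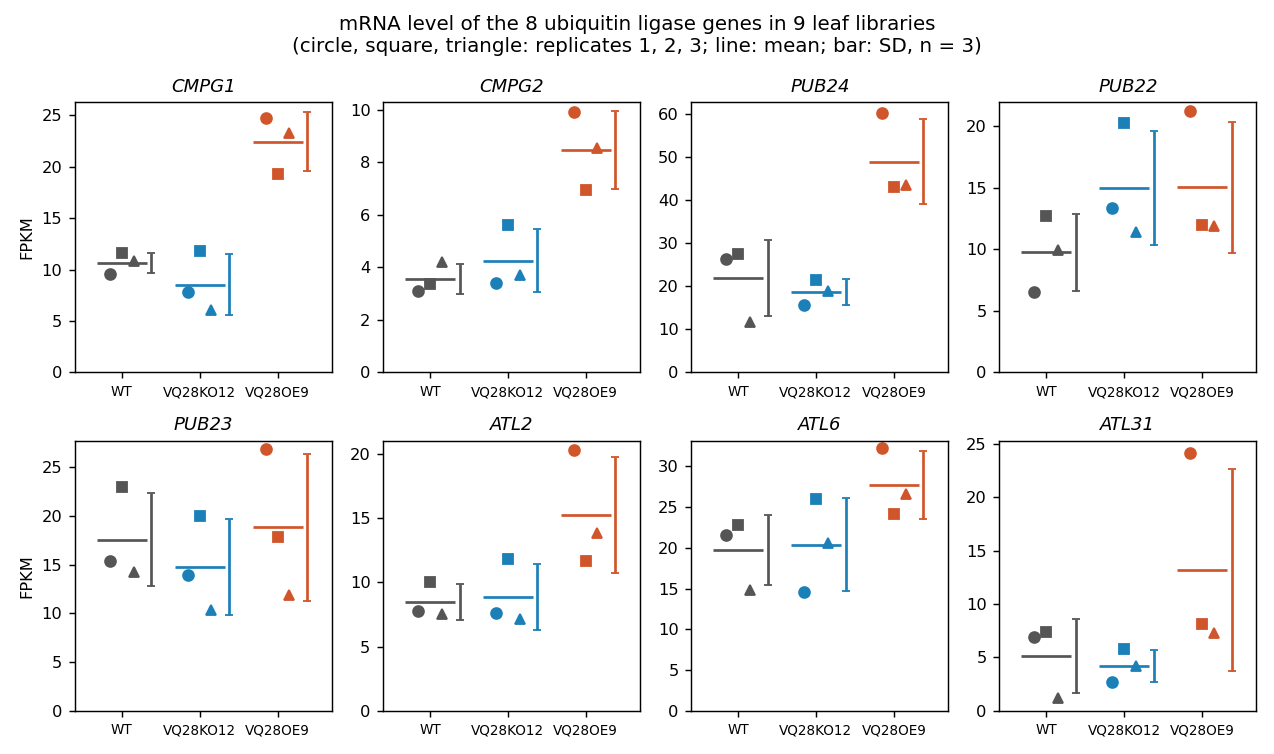
FPKM of the 8 genes in each library, with the mean as a line and the SD (n = 3) as a bar. In CMPG1, CMPG2 and PUB24 the VQ28OE9 libraries lie above all others, while PUB22 and PUB23 overlap between genotypes.

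Of the ATL genes, ATL31 varied most between libraries of a genotype, with coefficients of variation of 66.8%, 35.8% and 71.9% in WT, VQ28KO12 and VQ28OE9. ATL2, a rapid responder to chitin, stood at 7.79, 10.1 and 7.54 FPKM in WT, at 7.62, 11.9 and 7.12 in VQ28KO12 and at 20.3, 11.7 and 13.8 in VQ28OE9. The VQ28OE9 libraries lay above WT but overlapped VQ28KO12 through its replicate 2, with log2 fold changes of 0.84 ± 0.26 and 0.82 ± 0.26. ATL6 stood at 21.6, 22.7 and 14.8 FPKM in WT, at 14.6, 26.0 and 20.6 in VQ28KO12 and at 32.2, 24.2 and 26.6 in VQ28OE9. It had the same pattern with smaller differences, 0.47 ± 0.23 in both comparisons on the log2 scale. ATL31, the close copy of ATL6, stood at 6.95, 7.36 and 1.19 FPKM in WT, at 2.73, 5.75 and 4.20 in VQ28KO12 and at 24.1, 8.17 and 7.29 in VQ28OE9. Its 2 extreme libraries were WT replicate 3 and VQ28OE9 replicate 1, and WT and VQ28OE9 overlapped. The log2 fold change was 1.35 ± 0.65 against WT and 1.67 ± 0.65 against VQ28KO12. Without VQ28OE9 replicate 1 the log2 fold change of ATL31 was 0.56 against WT and 0.88 against VQ28KO12.

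Levels can be set in order within a genotype, since FPKM is scaled to length. In WT the order of mean FPKM was PUB24 (21.9 ± 8.75), ATL6 (19.7 ± 4.28), PUB23 (17.5 ± 4.78), CMPG1 (10.7 ± 0.992), PUB22 (9.73 ± 3.10), ATL2 (8.46 ± 1.38), ATL31 (5.16 ± 3.45) and CMPG2 (3.56 ± 0.569). Only PUB23 and CMPG1, and ATL2 and ATL31, were neighbours whose WT libraries did not overlap. In VQ28KO12 ATL6 (20.4 ± 5.70) led, and CMPG1 and CMPG2 were the only neighbours without overlap. In VQ28OE9 PUB24 (48.9 ± 9.81) stood clear of ATL6 (27.7 ± 4.15), and no other neighbours were separated. CMPG1 followed ATL6 there, at 22.4 FPKM, and CMPG2 again last, at 8.46 ± 1.48.

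Over the whole set, 8 of 8 log2 fold changes were above 0 in VQ28OE9 against WT, with a median of 0.95, where the median of the 16050 genes tested was -0.0029. The VQ28OE9 libraries did not overlap WT and lay higher in 5 members, CMPG1, CMPG2, PUB24, ATL2 and ATL6, and 13% of all genes tested met that rule. By edgeR's quasi-likelihood test with Benjamini-Hochberg adjustment over all genes tested, 2 members, CMPG1 and CMPG2, were past the threshold of 0.05 with a higher level and none with a lower, as were 1.37% and 0.935% of the genes tested (2.31% in all). Against VQ28KO12, 8 of 8 were above 0 with a median of 0.92 (all genes -0.0071). There 4 members, CMPG1, CMPG2, PUB24 and ATL31, did not overlap (12.1% of genes tested), and 3, CMPG1, CMPG2 and PUB24, were past the threshold, all with a higher level (3.71% of genes tested, with 2.62% lower and 6.33% in all). Nothing is read from these counts, since the set was chosen with both comparisons known, and the comparisons share the VQ28OE9 libraries. The calls against WT were lost for CMPG1 without any 1 library other than those labelled VQ28KO12 replicates 2 and 3 (adjusted p = 0.067 to 0.146). Those for CMPG2 were lost without any 1 library of WT, VQ28OE9 replicate 1 or 3 or VQ28KO12 replicate 3 (adjusted p = 0.0501 to 0.123). Against VQ28KO12 the call of CMPG1 was lost without VQ28KO12 replicate 1 (0.0572). That of PUB24 was lost without VQ28KO12 replicate 1 or 3 or VQ28OE9 replicate 1 (0.0773 to 0.0949), and that of CMPG2 without any of these or VQ28OE9 replicate 3 (0.0771 to 0.12). Leaving out both WT replicate 3 and VQ28OE9 replicate 3 ended the calls of CMPG1 and CMPG2 against WT (0.17 and 0.0852) and that of CMPG2 against VQ28KO12 (0.0578).

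**Figure D3:**
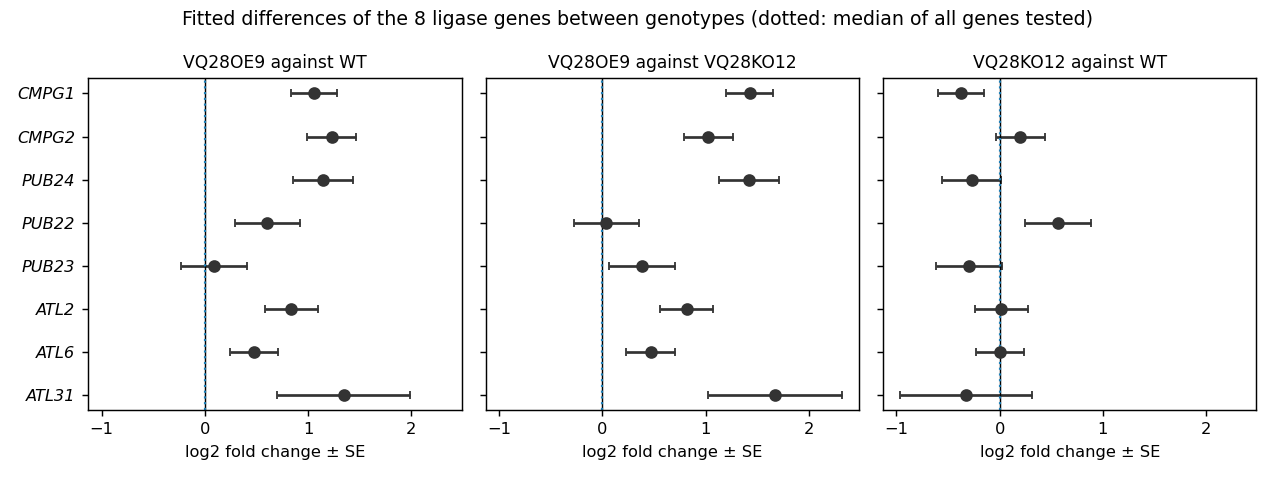
Fitted log2 fold changes of the 8 genes with their SE in the 3 comparisons, all from 1 fit to 9 libraries; the dotted line is the median of all genes tested. In VQ28OE9 the values run from 0.08 to 1.35 against WT and from 0.04 to 1.67 against VQ28KO12, and in VQ28KO12 against WT they lie on both sides of 0.

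The comparison of VQ28KO12 with WT asks whether the line labelled as a knockout differs in these genes. None of the 8 passed the test, and their adjusted p ran from 0.987 to 1 (edgeR), where 1 of the 16050 genes tested (0.00623%) passed. Without adjustment 808 genes and none of the 8 had p under 0.05 in the edgeR fit, where 802 genes were expected by chance. DESeq2 called 39 genes and none of the 8. All 8 overlapped between the genotypes, where 10.8% of genes tested did not. The log2 fold changes were 4 above and 4 below 0, with a median of -0.13, from -0.37 ± 0.22 in CMPG1 to 0.57 ± 0.32 in PUB22. PUB22 had the smallest p of the 8, an unadjusted 0.105 in the edgeR fit, at 15.0 ± 4.65 against 9.73 ± 3.10 FPKM.

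The genes also varied together between libraries of the same genotype. The mean z-score of the 8 genes on log2(FPKM + 1) was 1.64 in VQ28OE9 replicate 1, against 0.48 and 0.52 in replicates 2 and 3. It was -0.53, 0.06 and -0.92 in WT and -0.81, 0.34 and -0.78 in VQ28KO12. Library VQ28KO12 replicate 2 thus lay close to VQ28OE9 replicates 2 and 3. After removing genotype means, Pearson's r over the 9 libraries was 0.96 for PUB24 and ATL31, 0.86 for PUB24 and ATL6, and 0.85 for ATL6 and ATL31. Among CMPG1, CMPG2, PUB22, PUB23 and ATL2 it was 0.43 to 0.88 over 10 pairs, and between both groups 0.01 to 0.73 over 15 pairs. WT replicate 3 was the lowest WT library for all 3 genes of the first group. In the second it was also the lowest for PUB23 and ATL2, lay between the others for CMPG1 and PUB22 and was the highest for CMPG2. The groups were formed after the values were seen, and each r rests on only 9 libraries from which genotype means had been removed. These are therefore descriptions.

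**Figure D4:**
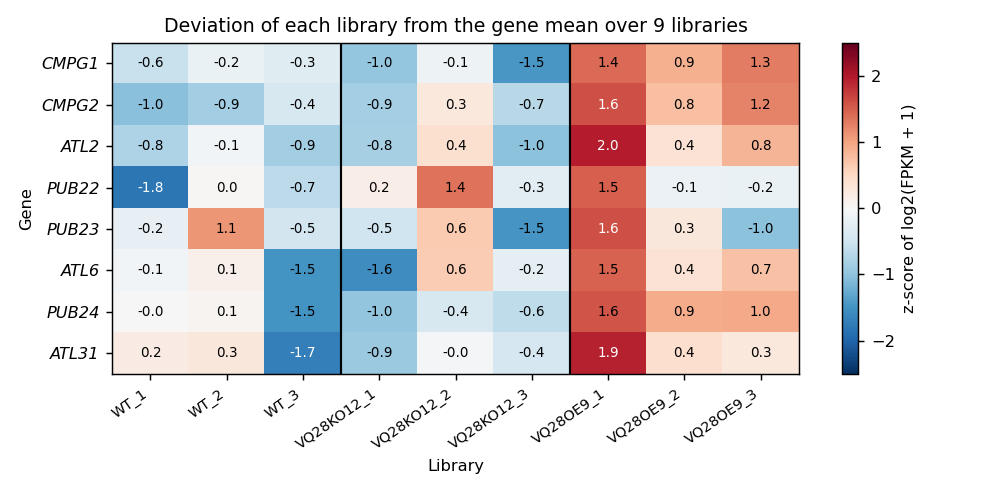
z-score of log2(FPKM + 1) of each gene in each library, relative to its mean over the 9 libraries. VQ28OE9 replicate 1 is high in every row, and WT replicate 3 is low in PUB24, ATL6 and ATL31.

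Genes most like the set were found by their correlation with its mean z-score over the 9 libraries, among 10596 other genes with a mean of at least 5 FPKM. The 8 highest were ACS6, an ethylene synthesis gene, FRB1, AT1G07135, NUDT7, a nudix hydrolase gene of defence control, DIC2, a mitochondrial dicarboxylate carrier gene, ZAT10, a zinc finger repressor gene, TOPP9 and HEMA2, a glutamyl-tRNA reductase gene. Their r was 0.97 to 0.99, and 1 of the 8 carries the chitin term. ACS6 stood at 31.4, 39.9 and 28.6 FPKM in WT, 32.9, 44.6 and 27.9 in VQ28KO12 and 66.1, 44.5 and 46.6 in VQ28OE9. VQ28OE9 replicate 2 of ACS6 lay just below VQ28KO12 replicate 2, as the set's own mean nearly did.

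Other U-box genes were taken by a PUB number among their names in the gene table, so family members without one were left out. Of the 20 taken, 17 were expressed enough to be tested. In VQ28OE9 against WT 3 rose and none fell, and in VQ28OE9 against VQ28KO12 4 rose and none fell. The medians over the 17 were 0.21 and 0.18 on the log2 scale. Of all genes tested 1.37% rose and 0.935% fell against WT, and 3.71% and 2.62% against VQ28KO12. The lists here and below were chosen with earlier results of these data known, so their calls are given as a description. PUB17, which acts positively in cell death and defence, stood at 52.5, 54.4 and 38.4 FPKM in WT, 48.9, 48.2 and 43.0 in VQ28KO12 and 106, 93.9 and 86.6 in VQ28OE9. It rose by 0.96 ± 0.14 on the log2 scale against WT (edgeR adjusted p = 0.0154) and by 1.06 ± 0.14 against VQ28KO12 (0.00738), with no overlap. PUB19 and PUB18, which act in abscisic acid and drought responses, were the others that rose against WT. PUB19 stood at 72.8, 66.5 and 23.1 FPKM in WT, 48.0, 45.6 and 49.8 in VQ28KO12 and 162, 169 and 136 in VQ28OE9. Its log2 fold changes were 1.51 ± 0.33 (adjusted p = 0.0491) and 1.73 ± 0.33 (0.0205). PUB18 stood at 15.9, 15.5 and 6.67 FPKM in WT, 14.9, 15.7 and 12.8 in VQ28KO12 and 41.2, 34.5 and 26.7 in VQ28OE9. Its log2 fold changes were 1.41 ± 0.29 (0.0398) and 1.27 ± 0.29 (0.0315). WT replicate 3 was the lowest WT library in all 3, as in PUB24.

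PUB39 rose against VQ28KO12 alone by this test (1.01 ± 0.24, edgeR adjusted p = 0.0355), with 0.90 ± 0.24 against WT (0.0807); the difference between those values was not tested. None of the 17 changed in VQ28KO12 against WT, where PUB45 had the smallest p, at 13.8 ± 1.46 against 10.48 ± 1.28 FPKM (adjusted p = 0.982). PUB12 and PUB13, whose proteins target the flagellin receptor, had log2 fold changes of 0.82 and -0.03 in VQ28OE9 against WT, and PUB25 and PUB26, which target the kinase BIK1, 0.56 and 0.08. The call of PUB17 against WT was lost without VQ28OE9 replicate 1 (adjusted p = 0.0682), and that against VQ28KO12 was kept without each library in turn. Those of PUB19 and PUB18 against WT were lost without any 1 library other than WT replicate 3, or, for PUB18, VQ28OE9 replicate 3 (0.061 to 0.138 and 0.05004 to 0.13), and also when only the 6 libraries compared were fitted (0.0997 and 0.0846). Against VQ28KO12 they were lost without VQ28KO12 replicate 1 or 3 or VQ28OE9 replicate 1 or 2, and for PUB18 also VQ28KO12 replicate 2 (0.0509 to 0.0782 and 0.059 to 0.117). That of PUB39 was lost without any 1 library of either line or WT replicate 1 (0.0516 to 0.131).

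**Figure D5:**
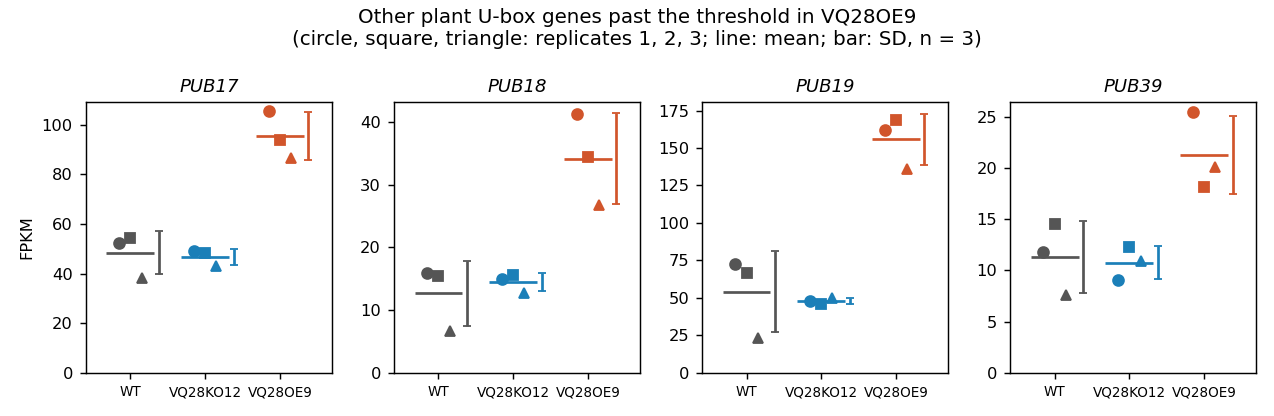
FPKM of PUB17, PUB18, PUB19 and PUB39 in each library, with the mean as a line and the SD (n = 3) as a bar. The VQ28OE9 libraries lie above all others in each gene, from 86.6 to 106 FPKM in PUB17 against at most 54.4 elsewhere.

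Other ATL genes were taken by an ATL number among their names and by their description. Family members without these were left out, so the list does not stand for the whole family. Of its 12 genes, 8 were tested and none changed in any comparison. Their median log2 fold changes were 0.20, 0.21 and 0.01 in VQ28OE9 against WT, VQ28OE9 against VQ28KO12 and VQ28KO12 against WT. The smallest p in VQ28OE9 belonged to ATL8 against WT (0.945 ± 0.642 against 3.04 ± 1.01 FPKM, edgeR adjusted p = 0.211) and to ATL15 against VQ28KO12 (5.51 ± 0.738 against 3.29 ± 1.42, 0.137). In VQ28KO12 against WT it belonged to AT1G04360 (1.02 ± 0.520 against 0.715 ± 0.307, adjusted p = 1).

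Chitin perception and early signalling genes came from a list of 14, all tested. None changed in VQ28OE9 against WT (median 0.30) or in VQ28KO12 against WT (median -0.01). In VQ28OE9 against VQ28KO12 (median 0.32), where 3.71% of all genes tested rose, 1 of the list rose. That was IOS1, a receptor-like kinase gene, at 25.0 ± 6.29 against 12.5 ± 3.47 FPKM (1.03 ± 0.26, edgeR adjusted p = 0.0447), lost without VQ28KO12 replicate 1 or 3, VQ28OE9 replicate 1 or 2, or WT replicate 1 (0.0633 to 0.155), and by limma with pseudocounts of 1 and 0.1 (0.0519 and 0.0556). IOS1 also had the smallest p against WT (12.05 ± 3.26 FPKM, adjusted p = 0.0687). The chitin receptor genes CERK1, LYK5 and LYK4 had log2 fold changes of 0.11, 0.52 and -0.60 in VQ28OE9 against WT. RBOHD, the oxidase gene of the immune oxidative burst, had the smallest p in VQ28KO12 against WT, at 57.6 ± 1.82 against 65.4 ± 9.73 FPKM (adjusted p = 1).

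Chitin-responsive transcription factor genes came from a list of 15, all tested. It was chosen with earlier results of these data known, so its calls support nothing. In VQ28OE9 against WT 1 rose and none fell (of all genes tested 1.37% and 0.935%), with a log2 median of 0.80. That was SZF1, a zinc finger gene, at 89.2 ± 33.7 against 30.2 ± 7.54 FPKM (1.55 ± 0.28, edgeR adjusted p = 0.0271). Against VQ28KO12 4 rose and none fell (of all genes tested 3.71% and 2.62%), with a median of 0.72. They were SZF1 (1.77 ± 0.28, 0.0124), its relative SZF2 (1.34 ± 0.30, 0.0325), WRKY33 (1.75 ± 0.34, 0.0205) and WRKY53 (1.6 ± 0.38, 0.0382). WRKY33 and WRKY53 overlap AT2G38480 and AT4G23800 in the table, so their levels are uncertain. None changed in VQ28KO12 against WT (median -0.22), where WRKY53 had the smallest p (3.45 ± 1.69 against 5.61 ± 1.86 FPKM, adjusted p = 0.987). The call of SZF1 against WT was lost without VQ28OE9 replicate 1 or any 1 WT library (0.0502 to 0.0718), without both WT replicate 3 and VQ28OE9 replicate 3 (0.0549), and with only the 6 libraries compared (0.059). Against VQ28KO12 all 4 calls were lost without VQ28KO12 replicate 1 or 3, those of SZF2, WRKY33 and WRKY53 also without VQ28OE9 replicate 1, that of SZF2 without VQ28OE9 replicate 3 and that of WRKY53 without VQ28OE9 replicate 2 or WT replicate 2 (0.0524 to 0.138). That of SZF2 was also lost with only the 6 libraries compared (0.0501).

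Among the other genes with the chitin term, 100 of 129 were tested, and this list was added after the values were seen. In VQ28OE9 against WT 8 rose and 2 fell, with a median of 0.61 (of all genes tested 1.37% rose and 0.935% fell). Against VQ28KO12 27 rose and 1 fell, with a median of 0.72 (of all genes tested 3.71% and 2.62%). In VQ28KO12 against WT, where 1 of the 16050 genes tested changed, none of the list changed, and the median was -0.07. The median log2 fold changes of the 8 ligase genes, 0.95, 0.92 and -0.13, stand beside these. No difference between the ligase genes and the other genes of the term was tested.

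Genes of reported substrates and partners of the ligases were described from a list of 9. None changed in any comparison, and the medians were 0.20, 0.29 and -0.04 on the log2 scale. CPK28, a kinase gene whose protein is a target of ATL31 and ATL6, had the smallest p in both comparisons of VQ28OE9. It stood at 29.5 ± 7.93 FPKM in VQ28OE9, against 14.9 ± 5.38 in WT (edgeR adjusted p = 0.154) and 13.3 ± 4.75 in VQ28KO12 (0.0645). EXO70B2, the target of PUB22, stood at 29.9 ± 8.73, 19.9 ± 4.67 and 17.2 ± 2.88 FPKM in VQ28OE9, WT and VQ28KO12. RPN12A, a proteasome subunit gene whose protein PUB22 and PUB23 bind, had log2 fold changes of -0.06, -0.02 and -0.04. In VQ28KO12 against WT GRF4, a 14-3-3 gene, had the smallest p (42.0 ± 1.17 against 33.2 ± 1.71 FPKM, adjusted p = 0.946).

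Marker genes of other cell types and a list of touch and wound genes were also described. The 8 touch and wound genes, none at 0, summed to 1887 to 3067 FPKM in WT, 1722 to 2434 in VQ28KO12 and 3051 to 3463 in VQ28OE9. None of the 8 changed in VQ28OE9 against WT, but all 8 log2 fold changes were above 0 (median 0.42), as were 49.6% of all genes tested. Against VQ28KO12 all 8 were also above 0 (median 0.58), with 49% of all genes tested. In VQ28KO12 against WT 2 of the 8 were above 0 (median -0.11). TCH2, LOX3 and CML23 rose against VQ28KO12 (edgeR adjusted p = 0.0495, 0.0219 and 0.0257), where 3.71% of all genes tested rose. These 3 calls were lost without VQ28KO12 replicate 1 or 3 or VQ28OE9 replicate 1 or 3, and that of TCH2 also without VQ28KO12 replicate 2, VQ28OE9 replicate 2 or WT replicate 1 (0.0502 to 0.163). The call of TCH2 was also lost by limma with pseudocounts of 1 and 0.1 (0.0554 and 0.0585) and without both WT replicate 3 and VQ28OE9 replicate 3 (0.0607). The 5 guard cell markers, none at 0, summed to 15.2 to 18.2 FPKM in WT, 17.9 to 25.5 in VQ28KO12 and 23.2 to 27.0 in VQ28OE9. FAMA and HT1 rose in VQ28OE9 against WT (0.0406 and 0.0307), as did 1.37% of all genes tested. KAT1 was lower without passing the threshold (4.56 ± 1.32 against 5.23 ± 0.422 FPKM). In VQ28KO12 against WT all 5 log2 fold changes were above 0, and none passed. The calls of FAMA and HT1 were lost without any 1 library of WT or VQ28OE9, and for FAMA also without VQ28KO12 replicate 1 or 2 (0.0502 to 0.136). Both calls were also lost with only the 6 libraries compared (FAMA 0.0753, HT1 0.0707) and without both WT replicate 3 and VQ28OE9 replicate 3 (0.0725 and 0.124), and that of FAMA with the replicate number as a block (0.0551). The 3 epidermis markers summed to 108 to 132, 130 to 157 and 90.1 to 105 FPKM, and ATML1 fell by 1.21 on the log2 scale against WT (0.013) and by 1.69 against VQ28KO12 (0.00387). None of the 4 mesophyll, the 4 vascular or the 1 tested dividing cell marker changed. The part of handling, or of cell type make-up, in the levels of the ligase genes was not tested. In these bulk libraries more cells of a type and more RNA per cell cannot be told apart.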

How the data were processed

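The authors deposited 1 table of 33610 genes with an FPKM and a whole-number count for each library, per the file headers. The labels name no aligner, counting tool, annotation or build, and do not say whether counting used the strand that the library kit marked. These deposited counts, called units, were handled as estimated counts: in each library 48.7% to 57% of genes with 1 to 16 units had a multiple of 4. They were whole already, so rounding changed none. FPKM of genes without units, which the table lists near 0.0001, were set to 0. All 9 libraries were fitted together with edgeR 4.0.16 in R 4.3.3 (quasi-likelihood test, TMM, 1 mean per genotype) over the 16050 genes with a mean of at least 1 FPKM, two-sided, at a Benjamini-Hochberg adjusted p under 0.05. "Rose", "fell" and "changed" mean past that threshold. A standard error is the log2 fold change over the square root of F. Levels are means ± SD in FPKM. The 8 ligase genes had 117 to 6933 units per library.

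The members and lists were chosen with earlier results of these data known. Genes named are the 8 members, VQ28, list members past the threshold (up to 6 a list), otherwise the one with the smallest p, and the 8 genes most like the set; the remaining list members were named for their known role after their values were seen. AT4G20000 is VQ28 in the numbering published for the family. Locus tags paired 28932 genes with RefSeq's TAIR10.1 annotation, and 28931 of these overlapped their partner by position. Gene windows and coding sequences (Biopython 1.88) came from the TAIR10.1 genome with its own annotation. The fit was tested on data simulated for VQ28OE9 against WT. It recovered 61% of 100 genes changed 2-fold and 98% of 100 changed 4-fold, and 5.92% of its calls were false. The changed genes were only raised and were drawn from genes above a minimum level. Counts were drawn independently from the fitted spread, so shifts of whole libraries were not simulated. These rates need not hold for the real libraries. Alternatives were DESeq2 1.42.0, limma 3.58.1 on log2(FPKM + 1) and log2(FPKM + 0.1), no filter, the 6 libraries compared, units divided by 4, a replicate block, and leaving out libraries.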

Additional observations from a re-analysis of the deposited data

How the results depend on the processing

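In VQ28OE9 against WT, 370 genes were past the threshold. DESeq2 gave 1358, the 6 libraries compared gave 163, leaving out both WT replicate 3 and VQ28OE9 replicate 3 gave 94, and leaving out each library in turn gave 46 to 337. Of the 8 ligase genes 2 were past it, against 4 by DESeq2, 1 with the replicate block, 0 without both of these, and 0 to 2 without each library in turn. Their median log2 fold change of 0.95 ranged from 0.56, without VQ28OE9 replicate 1, to 1.09 when each library was left out.

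In VQ28OE9 against VQ28KO12, 1016 genes were past it, against 1957 by DESeq2 and 131 to 1241 without each library in turn. There 3 ligase genes were past it, and 0 to 4 without each library, with a median of 0.71 to 1.18. In VQ28KO12 against WT, 1 gene was past it, against 39 by DESeq2, 2 without the filter or with the 6 libraries compared, 3 by limma on log2(FPKM + 1) or with units divided by 4, and 1 to 4 without each library in turn. No ligase gene was past it in any alternative, and their median ranged from -0.31 to 0.07. The cause of these shifts was not tested.

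Log2 fold changes near 0 changed sign. In VQ28OE9 against WT PUB23 ranged from -0.28 to 0.32 without each library. Against VQ28KO12 PUB22 was -0.0062 and -0.0071 by limma with pseudocounts 1 and 0.1, and -0.31 to 0.31 without each library. In VQ28KO12 against WT ATL31 was 0.025 by limma with pseudocount 0.1 and 0.0077 with the replicate block, and ATL2 and ATL6 were -0.055 and -0.16 without both WT and VQ28OE9 replicate 3. Without each library, CMPG2 ranged from -0.047 to 0.35, ATL2 from -0.24 to 0.16, ATL6 from -0.20 to 0.21 and ATL31 from -0.79 to 0.018. No other ligase gene changed sign under the alternatives run.

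Of 9 pairs of libraries with the same number, 4 had deviations from the group means correlated above 0.1 (from -0.23 to 0.41). The highest was that of WT replicate 3 and VQ28OE9 replicate 3. Pairs with different numbers ranged from -0.41 to 0.40. These values do not settle whether the numbers pair libraries. No label says that they do, so they were not taken as pairing. With the replicate block 468, 1055 and 1 genes were past the threshold, CMPG1 and FAMA lost their calls against WT (adjusted p = 0.0545 and 0.0551) and CMPG2 that against VQ28KO12 (0.0551). The W-box core was present in 4 of 8 windows of 200 bases (38.7% of all), and at least 2 matches in 1 (10.3% of all). Of the most alike genes, 7 of the 8 were shared with pseudocount 0.1. The lowest value of a ligase gene, ATL31 in WT replicate 3, rests on 117 units, fewer in fragments if the multiples of 4 mean about 4 units per fragment.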
